A study of Mus musculus with 4 samples.

Results

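The 9 genes described here are *Fancd2*, *Fanci*, *Fanca*, *Brca1*, *Brca2*, *Bard1*, *Palb2*, *Rad51ap1* and *Blm*, of 32285 genes in the count matrices. They were taken by name from the Fanconi anaemia and homologous recombination pathways, and each name matched 1 row. Their transcripts were followed in blood stem and progenitor cells from livers of E17.5 mouse embryos, sorted as LSK cells (lineage-negative, Sca1+ and c-Kit+). The WT group came from Bclaf1 f/f embryos and the KO group from Vav-Cre:Bclaf1 f/f embryos. Both therefore carry the floxed Bclaf1 alleles, and Cre itself is present in the KO group only. Vav-Cre is active in blood cells and in part of the endothelium, so the deletion is aimed at the blood lineage and not at the liver that houses it. Livers of 10 embryos of a genotype were pooled into 1 library, in which transcripts were counted by their 3′ ends together with 6 antibody tags for surface proteins (CITE-seq). With 1 library per genotype no difference between WT and KO has a replicate check, and no test was made. Every interval below is a 95% interval for counting error only.

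After filtering, 5345 WT cells and 2676 KO cells were kept, with a median of 22734 and 34187.5 transcript UMIs (counted molecules) per cell. Levels are given as CPM, the summed UMIs of a gene per 1000000 gene UMIs of the same cells, so that the deeper KO cells do not raise them by depth alone. Bclaf1 stood at 218 CPM in the WT library and 75.8 in the KO library. The labels do not say whether its 3′ end lies in the deleted part, and the source of the remaining UMIs was not tested. The tags of c-Kit (CD117) and Sca1 were read in both libraries, with medians of 694 and 155 tag UMIs per WT cell and 1012.5 and 176 per KO cell. The 12 stem cell markers summed to 482 CPM in WT and 418 in KO, the 12 erythroid markers to 1262 and 1323, and the 7 eosinophil markers to 1.63 and 10.0. Only 5 cell barcodes were shared by the 2 libraries.

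The Fanconi pathway removes crosslinks that tie the strands of DNA together and that stall replication forks. A core complex, of which Fanca is a part, puts ubiquitin on the paired proteins Fancd2 and Fanci, and the marked pair directs the cutting of the crosslink. The break that results is mended by homologous recombination, in which Brca1 and its partner Bard1 act early, Palb2 ties Brca1 to Brca2, Brca2 prepares the single strands for the search for a template, Rad51ap1 stimulates strand exchange, and the helicase Blm takes apart the joined molecules. Loss of the pathway in people causes bone marrow failure, and blood stem cells of the fetal liver are among the cells known to depend on it. Recombination uses the sister chromatid as its template, which exists only once DNA has been copied.

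The genes lie on 6 chromosomes of the mouse (GRCm38.p6): *Bard1* at chr1:71027535-71103141, *Brca2* at chr5:150522297-150570147, *Fancd2* at chr6:113531640-113597020, *Rad51ap1* at chr6:126923415-126939621, *Fanci* at chr7:79392312-79450266, *Blm* at chr7:80454993-80535148, *Palb2* at chr7:122107262-122132980, *Fanca* at chr8:123266294-123318651 and *Brca1* at chr11:101488761-101551955. Other annotated genes overlap 6 of them, among them *Fancd2os* with *Fancd2*, *Polg* with *Fanci* and *Zfp276* with *Fanca*. How reads in these overlaps were assigned is not given in the sources used here, so the levels of those genes are uncertain to that extent. Because the members moved together along the cell cycle, as described further on, their promoters were read for 3 short motifs of cycle-controlled genes, on both strands, in RefSeq sequences from 250 bases before to 50 bases after the start. The table held 8 of the 9 promoters, *Fancd2* being the one not in it.

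The letters of an E2F site (TTTCCCGC, TTTGGCGC, TTTCGCGC or TTTGCCGC) occurred in the promoters of *Brca2*, 168 bases before the start, and *Bard1*, 209 bases before it, against 2.26% of all 32851 promoters of the table. Among the genes of the S phase score used below they occurred in 11 of 28. The CHR element (TTTGAA) occurred in *Bard1* alone, against 17.9% of all promoters. The CCAAT box (CCAAT), which overlaps neither of the other motifs in letters, occurred in *Fanca*, *Brca1*, *Palb2*, *Rad51ap1* and *Blm*, against 37.4% of all promoters and 18 of 28 in the S phase list. A match is a description of letters and not evidence of a bound factor. Stretches that hold matches are printed to show how the members differ in these letters, with the matched letters in capitals. All are in the sense of the gene, 5′ to 3′, and the stretches of *Brca2*, *Rad51ap1* and *Fanca* lie inside the gene's annotated span while the other 3 lie upstream of it.
Bard1, chr1:71103143-71103222 (minus strand): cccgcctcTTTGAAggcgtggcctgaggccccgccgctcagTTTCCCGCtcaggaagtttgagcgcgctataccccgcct
Brca2, chr5:150522441-150522470 (plus strand): ttttaggccacaGCGGGAAAcagacacaca
Rad51ap1, chr6:126939607-126939636 (minus strand): caggcgagcggtgATTGGcgggctggcgca
Blm, chr7:80535149-80535228 (minus strand): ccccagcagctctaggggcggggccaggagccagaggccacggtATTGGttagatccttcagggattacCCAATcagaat
Fanca, chr8:123318609-123318638 (minus strand): gcatgctcctagCCAATgagcgccagcgcc
Brca1, chr11:101551956-101552065 (minus strand): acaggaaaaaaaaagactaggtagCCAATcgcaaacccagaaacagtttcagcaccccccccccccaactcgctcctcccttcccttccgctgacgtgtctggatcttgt

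The strongest pattern in the data was the cell cycle: all 9 genes were far lower in cells low for cycle genes than in cycling cells, in both libraries. Cells were called low, S or G2M from score lists that hold no repair gene of this report, with 33.8%, 23.0% and 43.1% of WT cells and 26.0%, 20.7% and 53.3% of KO cells in the 3 classes. A cell past the G2M cut was called G2M whatever its S score, and S was called only among the rest. The scores are continuous, and 15.7% of WT cells and 16.3% of KO cells lay within 0.25 of the cut on the S score, 8.33% and 8.78% of that on the G2M score. From low to S cells the median difference of the members was 2.57 on the log2 scale in WT (5.94-fold) and 2.32 in KO, with every interval above 0. The smallest difference of the 9 was 1.36 in WT and 1.46 in KO. A difference of at least 25% was found in 16.9% of 9317 measured genes in WT and 16.9% of 9547 in KO, where measured means at least 5 CPM averaged over the groups compared. The members' count is not set against these shares, because several pass that filter through the cycling cells alone. From low to G2M cells the median was 3.15 in WT and 3.17 in KO, with the smallest at 1.502 in WT and 1.49 in KO, while 21.1% and 22.8% of all measured genes were at least 25% higher.

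The Fanconi genes proper differed in when they were high. *Fancd2*, the protein that receives the ubiquitin mark, stood at 0.136 CPM in low cells of the WT library, 1.74 in S cells and 8.34 in G2M cells, and at 0.260, 1.92 and 10.1 in the KO library. It was thus low outside the cells called G2M and had the widest span of the 9, with G2M over S at 2.26 in WT and 2.39 in KO on the log2 scale. Its partner *Fanci* stood at 1.33, 3.42 and 6.58 in low, S and G2M cells of WT and at 1.24, 3.78 and 7.42 in KO, a narrower span. *Fanca*, of the core complex, was already high in S cells of WT, at 0.954, 7.07 and 8.49 in WT and 0.781, 4.80 and 8.31 in KO.

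Among the recombination genes, *Brca1* stood at 1.87, 21.2 and 36.1 CPM in low, S and G2M cells of WT and at 2.15, 20.9 and 39.7 in KO. Its partner *Bard1* stood at 1.98, 11.7 and 22.6 in WT and at 2.80, 13.9 and 25.1 in KO. *Rad51ap1* stood at 2.90, 33.8 and 59.1 in WT and at 2.80, 34.7 and 58.1 in KO. In these 3 genes the level in low cells was a small part of that in G2M cells. *Brca2* stood at 11.4, 33.0 and 44.8 in WT and at 12.6, 38.4 and 49.9 in KO. *Palb2* stood at 4.19, 11.0 and 11.9 in WT and at 4.29, 11.96 and 12.1 in KO. *Blm* stood at 7.90, 25.01 and 39.1 in WT and at 8.78, 24.1 and 44.2 in KO. These 3 kept a larger part of their level in low cells than the 3 before them. From S to G2M cells 8 of the 9 members had an interval above 0 in each library. The medians were 0.77 in WT and 0.85 in KO. By the different measure of at least 25% higher, 9.22% and 11.4% of all measured genes passed. Among measured members *Fanca* and *Palb2* fell short of that limit in WT and *Palb2* alone in KO, while *Fanci* was below the filter in WT. *Palb2*, the adaptor between Brca1 and Brca2, had the smallest difference between S and G2M cells, 0.11 in WT and 0.01 in KO.

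A finer view divided the cells into 8 sectors of 45 degrees around the circle of the 2 scores, in which sectors 1 and 2 hold mostly low cells, 3 and 4 only S cells, and 5 to 7 nearly only G2M cells, with sector 5 high for both scores. Sector 5 had a mean S score of 5.45 in WT and 5.48 in KO, above the 4.95 of cells called S in each library. The G2M class thus includes cells of high S score, and its differences from S cells do not separate these from later cells. *Rad51ap1* went through 2.12, 3.88, 14.1, 48.6, 80.4, 60.3, 28.4 and 7.95 CPM from sector 1 to 8 in WT, and through 1.84, 3.96, 13.1, 47.97, 80.0, 53.8, 28.0 and 14.4 in KO. *Brca1*, *Brca2*, *Bard1*, *Palb2*, *Fanca* and *Blm* also had their highest level in sector 5 in both libraries. *Fanci* was highest in sector 5 in WT (7.49) and in sector 6 in KO (8.18). *Fancd2* had its highest level in sector 6 in both libraries: 0.0815, 0.166, 0.827, 2.33, 8.60, 9.53, 6.81 and 3.41 in WT and 0.283, 0.339, 0.530, 2.32, 9.11, 11.8, 9.67 and 1.80 in KO, although the counting intervals of sectors 5 and 6 overlap in WT. Sector 8 held 137 WT and 60 KO cells and gave few UMIs for most members.

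**Figure D1:**
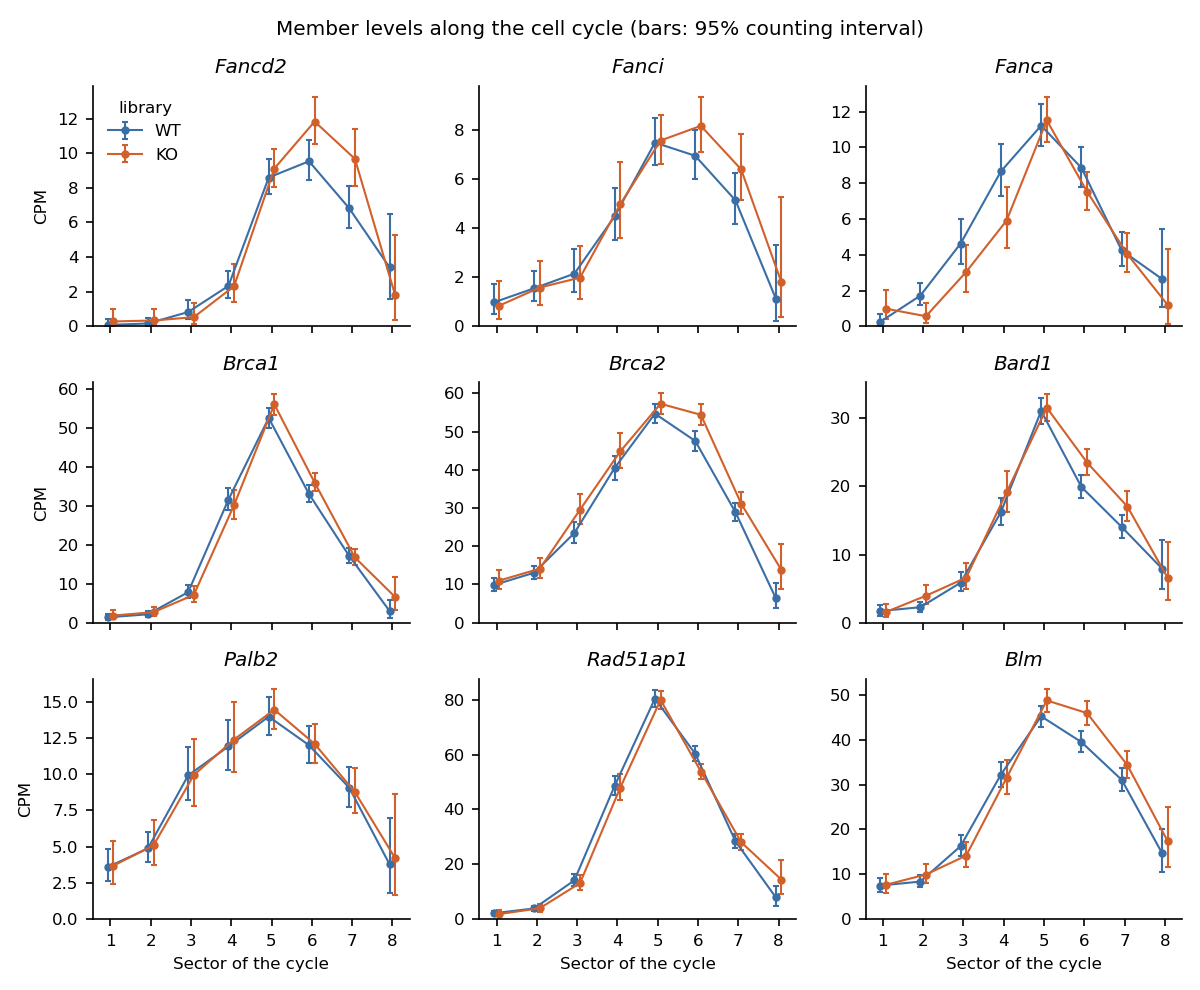
Level of each of the 9 genes (y axis, CPM, a scale of its own per gene) in the 8 sectors of the cell cycle (x axis) for the WT library (blue) and the KO library (orange), with 95% counting intervals as bars. The curves of both libraries have a similar shape in each gene, with the highest level in sector 5 or 6, and *Fancd2* is close to 0 up to sector 3.

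The other genes of these pathways and of DNA repair ranged from as strong a difference to none. Low genes can pass the filter through S cells alone, so the counts that follow are descriptions. Over all measured genes, 16.9% were at least 25% higher in S than in low cells of WT and 23.6% at least 20% lower. *Fancd2*, *Fanci* and *Fanca* fell below the filter here and are in none of the counts, although each was higher in S cells (3.68, 1.36 and 2.89 on the log2 scale). With the other members included, the measured genes at least 25% higher in S than in low cells of WT were 5 of 8 in the core complex list and 1 of 2 in the list of the Fancd2 and Fanci pair and its deubiquitination. They were 4 of 9 in the Brca1 complexes, 6 of 7 in the strand exchange list and 4 of 4 in the Blm complex. Around the pathway they were 1 of 7 among crosslink nucleases, 5 of 6 in end resection, 3 of 3 in RPA and 7 of 8 in the ATR checkpoint. In other kinds of repair they were 3 of 6 in mismatch repair, 4 of 9 in base excision repair and 1 of 12 in nucleotide excision repair, and in end joining 2 of 9 were higher and 3 lower. In aldehyde detoxification, which removes a natural source of crosslinks, the count was 1 of 4. By list, genes with the greatest difference outside the members included the nuclease subunit *Eme1* (2.80 on the log2 scale), the resection nuclease *Exo1* (2.92), the checkpoint mediator *Clspn* (3.68), the single-strand binding subunit *Rpa2* (1.42), the polymerase *Polq* (2.23), the glycosylase *Neil3* (2.44), the mismatch protein *Msh6* (0.61), the repair factor *Ercc8* (0.67) and the formaldehyde-clearing enzyme *Adh5* (0.35).

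**Figure D2:**
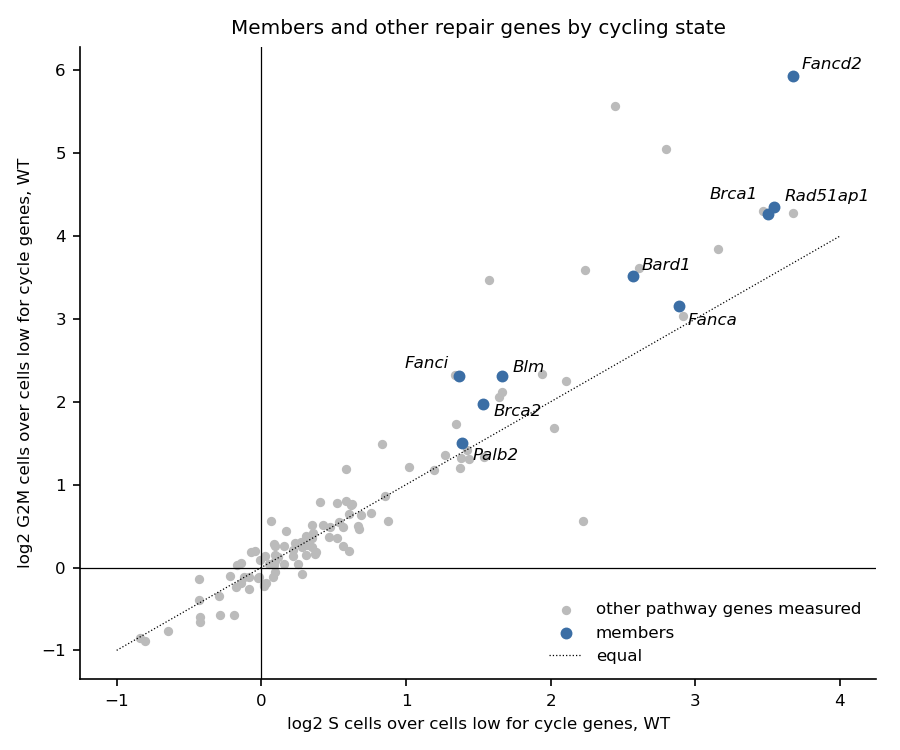
Log2 ratio of S over low cells (x axis) and of G2M over low cells (y axis) in the WT library for the 9 members (blue, named) and 103 other measured genes of the repair lists (grey), with the line of equal ratios dotted. The members lie in the upper right, from *Palb2* and *Fanci* at the lower end to *Fancd2* at 3.68 and 5.94, while many other repair genes lie near 0 on both axes.

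Over 22 pools of cells (surface gate by cycle class by library, at least 50 cells each) the genes whose log2 level was most like the mean of the members, among 5399 genes of at least 20 CPM, were *Rrm1* (r = 0.996), *Ncapg2* (0.992), *Mcm10* (0.991), *Prim2* (0.990) and *Tyms* (0.989). *Rrm1* and *Tyms* belong to the S score that formed the pools, and the pools share 2 libraries, so these values are descriptions. Closest to single members were *Hist1h3b* for *Fancd2* (0.975), *Sgo1* for *Fanci* (0.954), *Clspn* for *Fanca* (0.973), *Mcm10* for *Brca1* (0.989) and *Rad51ap1* (0.987), *Cenpk* for *Brca2* (0.975), *Cenph* for *Bard1* (0.980) and *Exosc8* for *Blm* (0.979). Among pairs of members *Brca1* and *Rad51ap1* were most alike (0.990) and *Fancd2* and *Palb2* least (0.745).

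Between the genotypes the members were on the whole somewhat higher in the KO library, and the difference was smaller at equal cycle shares. *Fancd2* stood at 5.25 CPM in WT (742 UMIs) and 7.23 in KO (755 UMIs), a log2 ratio of 0.46 with an interval of 0.32 to 0.61. *Fanci* stood at 4.82 and 5.89 (0.29, 0.13 to 0.45), and *Fanca* at 6.63 and 6.602 (-0.005, -0.15 to 0.14). Over all cells *Fancd2* and *Fanci* were thus higher in KO while *Fanca* stood level. *Fanca* is 1 of 12 measured genes of the core complex list, in which *Fancf* had the highest ratio (0.34).

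*Brca1* stood at 25.9 in WT and 31.0 in KO (log2 ratio 0.26, 0.19 to 0.33), *Bard1* at 16.02 and 19.9 (0.31, 0.23 to 0.40) and *Brca2* at 35.4 and 42.4 (0.26, 0.20 to 0.32). *Palb2*, which ties these together, stood at 10.1 and 10.9 (0.11, -0.002 to 0.23). *Rad51ap1* stood at 42.1 and 46.0 (0.13, 0.07 to 0.18) and *Blm* at 29.7 and 35.6 (0.26, 0.20 to 0.33). In all, 7 of 9 intervals lay above 0 and the median log2 ratio was 0.26, against 0.07 over all 9229 measured genes. Only *Fancd2* was at least 25% higher in KO, 1 of 9 against 7.47% of measured genes, and none was at least 20% lower, against 2.57%.

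G2M cells, in which the members are high, made up more of the KO library, so the KO classes were also weighted to the WT shares of low, S and G2M cells. The median log2 ratio was then 0.14, with all measured genes again at 0.07. *Fancd2* was at 0.27 (0.12 to 0.41), *Bard1* at 0.18 (0.09 to 0.26), *Brca2* at 0.17 (0.11 to 0.23), *Blm* at 0.14 (0.07 to 0.20) and *Brca1* at 0.11 (0.04 to 0.18), the 5 intervals above 0. *Fanci* (0.16), *Palb2* (0.05), *Rad51ap1* (-0.02) and *Fanca* (-0.14) had intervals that reached 0. No member passed the 25% or 20% limits at equal cycle shares, which 6.86% and 1.33% of measured genes did. Set against WT cells of the same sectors, the KO library held 755 *Fancd2* UMIs where 640 were expected (0.24, 0.13 to 0.34). *Fanca* (-0.14, -0.25 to -0.04) and *Rad51ap1* (-0.06, -0.10 to -0.02) were below their expected UMIs. These intervals leave out the counting error of the WT levels behind the expected UMIs. The KO sectors were also weighted to the WT shares, with that error included. *Fancd2* was then at 0.24 (0.09 to 0.39) and *Fanca* at -0.18 (-0.33 to -0.04). *Rad51ap1*, at -0.05, had an interval that reached 0.

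**Figure D3:**
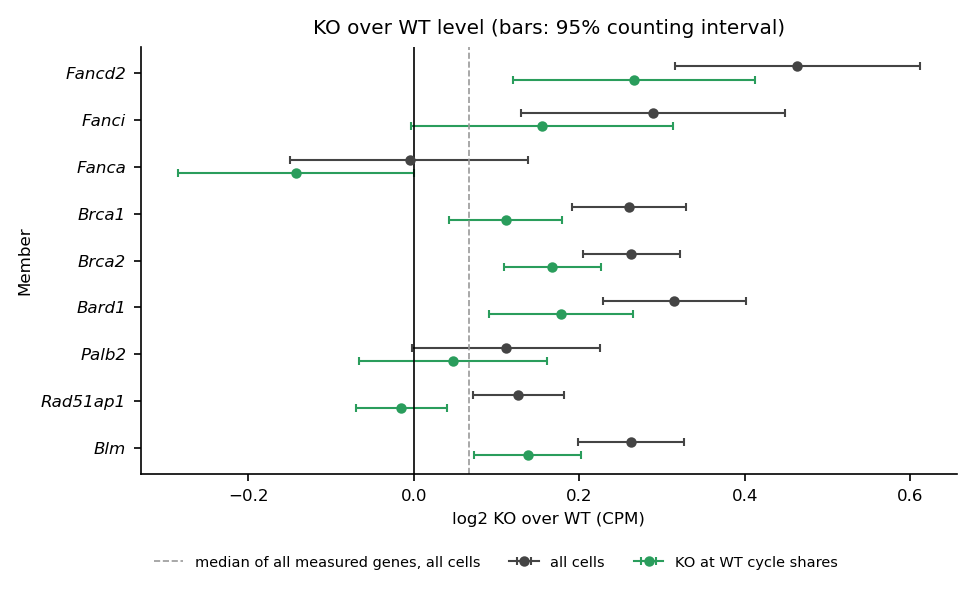
Log2 ratio of KO over WT level (x axis) for each of the 9 genes (y axis) over all cells (grey) and with KO cells weighted to the WT shares of low, S and G2M cells (green), with 95% counting intervals as bars and the median of all measured genes dashed. Each green point lies to the left of its grey point, and *Fancd2* has the highest ratio in both.

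Over all cells of a cycle class, 1 member was lower in KO beyond counting error. In S cells *Fanca* stood at 7.07 CPM in WT (211 UMIs) and 4.80 in KO (85 UMIs), a log2 ratio of -0.56 (-0.94 to -0.19), and was the only member at least 20% lower there, against 1.63% of measured genes. It was also lower in sector 4 (8.66 and 5.91, -0.55, -1.04 to -0.08) and, on 31 and 5 UMIs, in sector 2 (1.72 and 0.565), but level in sector 5 (11.2 and 11.5), where it is highest. In S cells *Brca2* (0.22, 0.08 to 0.36) and *Bard1* (0.25, 0.01 to 0.49) were higher in KO. In G2M cells 5 members were, with *Fancd2* at 8.34 in WT and 10.1 in KO (0.27, 0.12 to 0.42), *Blm* at 0.18, *Bard1* and *Brca2* at 0.15 and *Brca1* at 0.14. No member was at least 25% higher in KO in S or G2M cells, against 11.8% and 7.06% of measured genes. *Fancd2* was higher in the later sectors, with 9.53 and 11.8 in sector 6 and 6.81 and 9.67 in sector 7 (0.51, 0.15 to 0.86), and *Rad51ap1* was lower in sector 6 (60.3 and 53.8, -0.16, -0.27 to -0.06). In low cells no interval excluded 0.

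Of 120 listed repair genes, 112 were measured in this comparison, 6 at least 25% higher and 1 at least 20% lower in KO, with a median of 0.10. Neither share is above that of all measured genes, 7.47% and 2.57%, and with median-of-ratios scaling the counts were 2 and 2. The higher ones were *Fancd2*, the core subunit *Fancf* (0.34), the Holliday junction nuclease *Gen1* (0.39), *Polq* (0.40), *Neil3* (0.34) and *Gtf2h1* of the repair factor TFIIH (0.35), and the lower one was the uracil glycosylase *Ung* (51.9 and 39.7 CPM, -0.39). At WT cycle shares none of 111 measured genes passed either limit. The lowest ratios in the other lists were near 0, among them *Faap100* (-0.10), *Mus81* (-0.15), *Nbn* (-0.12), *Rpa2* (-0.15) and *Rmi2* (-0.002), and *Paxx* of end joining was at -0.31 (22.1 and 17.9 CPM).

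Counted cell by cell, after each cell was thinned to 8000 UMIs, 54.6% of WT cells (53.2 to 55.9, exact binomial interval) and 61.2% of KO cells (59.4 to 63.1) held a UMI of at least 1 member, against 73.0% and 83.1% without thinning. By class these shares were 20.1%, 60.0% and 78.8% of low, S and G2M cells in WT and 23.3%, 59.7% and 80.4% in KO. A cell held on average 0.227, 0.946 and 1.60 of the 9 genes in the 3 classes of WT and 0.251, 0.980 and 1.62 in KO, so the classes of the libraries differed little. A *Fancd2* UMI was found in 2 of 1809 low cells of WT (0.111%) and 2 of 696 of KO, which limits how much free RNA adds to that gene: its level in low cells was 1.43% of that in empty droplets in WT and 2.29% in KO, with upper limits of 3.67% and 5.87%. Haemoglobin UMIs in the lymphoid gate gave a larger estimate of free RNA, 25.7% in WT and 40.0% in KO. It counts all haemoglobin of that gate as free RNA and lies above the *Fancd2* upper limits, so it is too high for *Fancd2*. With that share subtracted *Fanci* turned from 0.29 to -1.04 in KO over WT. The median depth was 15357 and 21017.5 UMIs in low cells and 31897 and 45289 in G2M cells of WT and KO.

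In G2M cells, partner genes were looked for in the same cells at equal depth. *Bard1* was found in 22.5% of WT cells with a *Brca1* UMI (19.1 to 26.2) and 15.3% of those without (13.6 to 17.1), and in 21.2% and 16.5% in KO, where the intervals overlap. *Palb2* was found in 12.7% of WT cells with a *Brca2* UMI (10.3 to 15.5) and 7.66% of those without (6.42 to 9.06), and in 11.7% and 6.81% in KO. *Fanci* was found in 4.40% of WT cells with a *Fancd2* UMI and 5.50% of those without, and in 7.83% and 5.41% in KO, with wide intervals, since 159 WT and 115 KO cells held a *Fancd2* UMI. Cells of 1 library are not replicates, and G2M cells still differ in their sector, whose part in these shares was not tested.

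The surface gates are antibody cuts on CD150 and CD48, and CD150+CD48- LSK cells are the gate richest in stem cells: 45.9% of its WT cells and 43.0% of its KO cells also belonged to the stem cell (HSC) gate made from transcripts. Within 0.25 of a cut lay 7.07% of WT and 9.04% of KO cells for CD150 and 8.53% and 11.4% for CD48. *Brca2* stood at 38.4 CPM in CD150+CD48-, 32.8 in CD150-CD48-, 39.1 in CD150+CD48+ and 34.5 in CD150-CD48+ cells of WT, and at 45.8, 43.2, 47.7 and 40.3 in KO. *Rad51ap1* stood at 36.5, 36.7, 49.1 and 42.1 in WT and 41.3, 43.5, 50.6 and 45.9 in KO. *Fancd2* stood at 3.95, 4.04, 6.39 and 5.33 in WT and 6.33, 7.98, 8.43 and 6.89 in KO. These 3 genes were thus present in the CD150+CD48- gate. *Rad51ap1* and *Fancd2* had their highest value in CD150+CD48+ cells, while for *Brca2* that gate stood level with CD150+CD48- cells (0.03, -0.14 to 0.19 in WT and 0.06, -0.11 to 0.22 in KO on the log2 scale).

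Among the others, *Brca1* ranged from 23.5 in CD150+CD48- to 30.2 in CD150+CD48+ cells of WT, *Bard1* from 12.6 to 17.2, and *Blm* from 26.1 to 37.3, with the same 2 gates as the ends. CD150+CD48+ over CD150+CD48- had a median log2 ratio of 0.46 in WT, with 6 intervals above 0, and 0.29 in KO, with 4. Of all measured genes 10.0% in WT and 5.69% in KO were at least 25% higher. Among measured members all but *Brca2* and *Palb2* passed this limit in WT, and only *Fancd2* and *Blm* did in KO. *Fanci* was below the filter in both libraries. G2M cells made up 57.9% of CD150+CD48+ and 25.2% of CD150+CD48- cells in WT, and 75.7% and 43.0% in KO. With both gates weighted to equal shares of low, S and G2M cells the median was -0.14 in WT and 0.02 in KO, beside -0.11 and -0.05 over all measured genes.

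For CD150+CD48- over CD150-CD48+ cells, the largest gate, the median log2 ratio was -0.18 in WT and -0.12 in KO as gated. Weighted, *Brca2* (0.50), *Brca1* (0.38), *Rad51ap1* (0.30) and *Blm* (0.26) were higher in the CD150+CD48- gate of WT beyond counting error, and the median was 0.26. All measured genes had a median of 0.13 on this scale, and 24.2% of them were at least 25% higher. In KO *Brca2* (0.27) and *Blm* (0.17) were higher, *Fanci* (-0.66) and *Bard1* (-0.24) lower, and the median was -0.05, against 0.07 over all measured genes. Beside this, 6.21% of CD150+CD48- cells in WT and 22.7% in KO belonged to the erythroid gate. Without those cells the weighted medians were 0.34 and 0.16. Their part in the difference between libraries was not otherwise tested.

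KO over WT had a median log2 ratio of 0.27, 0.31, 0.24 and 0.22 in CD150+CD48-, CD150-CD48-, CD150+CD48+ and CD150-CD48+ cells, against -0.004, 0.005, 0.06 and 0.09 over all measured genes. At the WT cycle shares of each gate the members' medians were -0.09, 0.08, 0.11 and 0.17. In CD150+CD48- cells the median was 0.07 without the erythroid gate, with 1 interval above 0, and 0.11 in the cells that also belonged to the HSC gate. *Fancd2* was higher in KO in each of the 4 gates, by 0.68, 0.98, 0.40 and 0.37, with every interval above 0 (0.49 to 1.49 in CD150-CD48- cells and 0.18 to 0.56 in CD150-CD48+ cells). At the WT cycle shares of each gate these were 0.07, 0.63, 0.19 and 0.25, with intervals across 0 in both CD150+ gates. *Blm* was higher as gated in each of them too, by 0.41, 0.32, 0.43 and 0.14, and at those cycle shares by 0.34 in CD150+CD48+ cells (0.20 to 0.48), with intervals across 0 in the other 3. Within the cycle classes of CD150+CD48- cells some members were lower in KO: *Brca1* (-0.33, -0.59 to -0.07) and *Rad51ap1* (-0.31, -0.51 to -0.10) in G2M cells, and *Rad51ap1* (-1.18), *Blm* (-1.08) and *Fanca* (15 UMIs in WT and 1 in KO) in the 92 WT and 49 KO S cells. At the WT cycle shares of that gate *Rad51ap1* was at -0.41 (-0.61 to -0.22). As gated, *Fanca* was within counting error of 0 in each of the 4 gates.

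A wider difference appeared in CD150+CD48- cells high for CD201, the protein of the stem cell gene *Procr*, when the same tag limit was used for both libraries (283 WT and 177 KO cells). There *Blm* stood at 15.99 CPM in WT and 35.1 in KO, *Rad51ap1* at 20.3 and 39.6, *Brca1* at 14.2 and 26.6, and *Fancd2*, on 5 and 25 UMIs, at 1.14 and 4.32. The median log2 ratio was 0.91, and 8 of 9 intervals lay above 0. Over all measured genes the median was -0.08, with 23.1% at least 25% higher and 32.6% at least 20% lower. In the same cells the erythroid gate held 1.41% in WT and 24.3% in KO, G2M cells made up 10.2% and 33.9%, and the CD201 tag itself had a median of 10 UMIs over all WT cells and 37 over all KO cells. Without the erythroid gate the median was 0.31 with 2 intervals above 0 (279 and 134 cells), with the limit set in each library apart it was 0.62, with both it was -0.04, and in CD201-high cells of the HSC gate (193 and 95 cells) it was -0.05, with members from -0.69 to 2.54 and no interval off 0.

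By lineage transcripts, the members were lower in the HSC gate (493 WT and 228 KO cells) than in cells of no lineage gate (3688 and 1523 cells), and the gates also differed in their cycle shares. *Rad51ap1* stood at 24.8 CPM in the HSC gate and 44.0 in cells of no lineage gate in WT, and at 27.0 and 48.1 in KO. *Brca1* stood at 17.498 and 27.3 in WT and 23.1 and 34.3 in KO, and *Fancd2*, on 12 and 14 UMIs in the HSC gate, at 1.53 and 5.15 in WT and 2.74 and 7.29 in KO. *Brca2* differed least, with 30.7 and 36.3 in WT and 43.5 and 43.3 in KO. The median log2 ratio of HSC over no gate was -0.79 in WT and -0.83 in KO, with 7 of 9 intervals below 0 in each library. Of all measured genes 14.6% and 14.7% were at least 20% lower. *Brca2* and *Palb2* did not reach that limit in either library, and the other measured members did. *Fancd2* and *Fanci* in WT and *Fanca* in KO were below the filter. Low cells made up 74.4% of the HSC gate and 29.1% of the cells of no gate in WT, and 64.5% and 21.9% in KO.

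At equal cycle shares the order was the reverse. *Brca1* was then 0.74 higher in the HSC gate in WT and 0.77 in KO, *Brca2* 0.69 and 0.88, *Palb2* 0.55 and 0.62, *Rad51ap1* 0.54 and 0.52, and the median of the 9 was 0.55 and 0.32, with 7 and 4 intervals above 0, against 0.28 and 0.26 over all measured genes. *Blm* (0.11 and 0.14) and *Fancd2* (-0.18 and 0.03) stayed within counting error of 0. Against cells of no gate in the same sectors, the HSC gate held 240 *Brca2* UMIs in WT where 158 were expected and 222 in KO where 125 were, and 137 *Brca1* UMIs where 82.3 were expected and 118 where 69.7 were. This has to be read against all genes, which were also higher on this scale. Their median was 0.25 in WT and 0.24 in KO, and 42.6% and 41.4% of measured genes were at least 25% higher. Of the measured members 5 of 6 in WT and 4 of 6 in KO were, and the filter left the others out of these counts. The lowest of the 9 on this scale was at -0.26 in WT and -0.28 in KO. At equal cycle shares 7 of 8 measured members in WT were at least 25% higher, against 46.2% of measured genes. In KO 4 of 9 were, against 45.1%, and 1 passed the limit for lower genes.

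**Figure D4:**
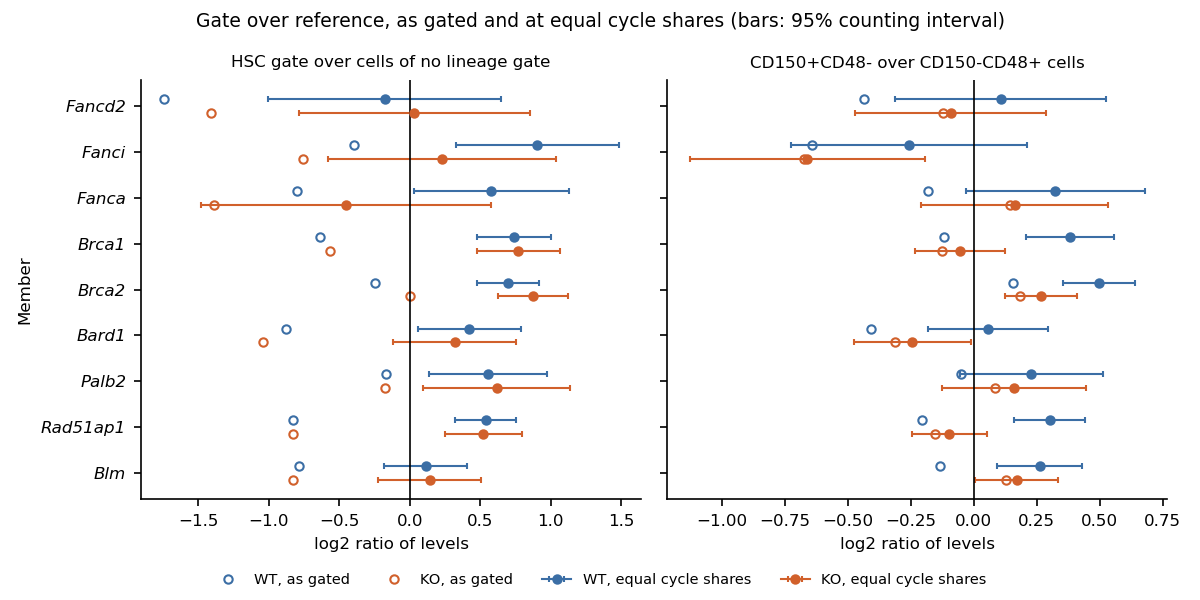
Log2 ratio of levels (x axis) for each of the 9 genes in the HSC gate over cells of no lineage gate (left) and in CD150+CD48- over CD150-CD48+ cells (right), as gated (open) and at equal shares of low, S and G2M cells (filled, with 95% counting intervals), in WT (blue) and KO (orange). In the left panel the ratios as gated lie at or below 0 and the filled points above it, except those of *Fancd2* in WT and *Fanca* in KO. In the right panel the filled point of WT lies to the right of that of KO in each of the 9 genes, and *Fancd2* has intervals across 0 in both libraries.

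The erythroid gate (247 WT and 290 KO cells) was set apart from the HSC gate by markers such as *Klf1* (174 CPM against 1.15 in WT, 153 against 1.37 in KO). *Blvrb* stood at 823 against 29.5 in WT and 736 against 30.1 in KO. The globin gene *Hbb-bt* (286 against 2155 in WT, 84.4 against 2385 in KO) was higher in the HSC gate. So was *Cnrip1* (8.06 against 52.7 in WT, 2.67 against 64.6 in KO). The rest of the 12 erythroid markers were higher in the erythroid gate in both libraries. Summed, the 12 stood at 2962 against 2777 CPM in WT and 2651 against 3113 in KO. Members had high levels in the erythroid gate as gated, with *Rad51ap1* at 49.7 and 50.2 CPM in WT and KO. *Blm* stood there at 39.7 and 49.0 and *Fancd2* at 7.76 and 8.54. Against cells of no gate in the same sectors it was lower, with medians of -0.35 in WT and -0.32 in KO, against -0.15 and -0.13 over all measured genes. *Brca1* (-0.59 and -0.74) and *Fanci* (-0.61 and -0.77) were lowest on that scale, while *Blm* (0.04 and 0.20) and *Fanca* (0.16 and 0.18) were not lower. The granulocyte-monocyte gate stood at -0.17 and -0.16, the lymphoid gate at -0.03 and 0.15, and the megakaryocyte gate at -0.06 and -0.01. All measured genes had medians of -0.07 and -0.05, 0.01 and -0.01, and 0.04 and 0.06 in these gates. In the lymphoid gate (401 and 234 cells) *Fanca* stood at 3.74 and 2.77 CPM and *Brca1* at 20.2 and 23.4. In the megakaryocyte gate (199 and 115 cells) *Blm* stood at 41.9 and 52.4, its highest level among the lineage gates in each library. The mast or basophil gate (80 and 77 cells) held 1 *Fanci* UMI in WT and 6 in KO, too few to place that gene. As gated, *Rad51ap1* (-1.43 and -1.75), *Brca2* (-1.04 and -1.83), *Brca1*, *Bard1* and *Palb2* were lower there than in cells of no gate beyond counting error. *Blm* (0.21 and -0.26) was not, and *Fancd2*, *Fanci* and *Fanca* had intervals across 0 in WT or KO. Low cells made up 77.5% and 75.3% of the gate. Within sectors its median was -0.11 and -0.47, against -0.12 and -0.20 over all measured genes.

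Within lineage gates KO over WT had medians of 0.13 in the HSC gate, 0.18 in the erythroid, 0.32 in the megakaryocyte, 0.24 in the granulocyte-monocyte and 0.29 in the lymphoid gate, and 0.25 in cells of no gate. *Brca2* had an interval above 0 in each of these 6, from 0.19 in the erythroid gate (0.03 to 0.34) to 0.50 in the HSC gate (0.23 to 0.77). These ratios are as gated, not at equal cycle shares, and have no all-gene medians beside them. G2M cells made up 44.7% of the cells of no gate in WT and 54.2% in KO, and 83.4% and 91.4% of the erythroid gate. In the HSC gate *Brca1* was the other member with an interval above 0 (0.40, 0.03 to 0.77), and *Fanca* stood at 3.83 in WT on 30 UMIs and 2.35 in KO on 12 (-0.71, -1.81 to 0.30). S cells made up 11.8% of that gate in WT and 21.1% in KO, and low cells 74.4% and 64.5%. Within its low, S and G2M cells taken apart, no member had an interval off 0. The mast or basophil gate had a median of -0.50 on few UMIs, and none of its intervals excluded 0.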

How the data were processed

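Libraries of transcripts and 6 antibody tags were made with the 10x 3′ v3.1 kit, per the labels' protocols, after c-Kit bead enrichment and a double sort of 20000 LSK cells per genotype, of which 10000 were loaded. The authors deposited unfiltered UMI counts per gene or tag and barcode (2395014 WT and 2456731 KO barcodes with 32285 genes), made with Cell Ranger 4.0.6 on mm10, per the submitters' processing notes. These notes also name Seurat and DESeq without a step.

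Cells were barcodes with at least 500 genes, at most 10% mitochondrial UMIs and a library-specific minimum of gene UMIs (8178 in WT, 9992 in KO), which is 10% of the level that 99% of its 6000 deepest barcodes do not exceed. UMIs were summed over the cells of a class and given as CPM, with exact Poisson intervals for levels, exact conditional binomial intervals for ratios and Clopper-Pearson intervals for shares. Weighted ratios have a normal interval on the log scale. All cover counting error only, over 141419013 WT and 104358292 KO gene UMIs. Cycle classes and the CD150 and CD48 cuts (centred log ratio of tags) come from a mixture of 2 Gaussians on cells of both libraries, lineage gates from a standardized score of at least 1.5, and CD201 was split at the pooled median. A gene was measured at 5 CPM averaged over the groups compared, and a limit of 25% higher or 20% lower was used to count genes. Scrublet called 0 WT and 7 KO doublets (0.262% of KO cells), so it had not worked, and doublets stayed in, with an alternative that removed the cells of highest score.

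All 9 members are named. Of other repair genes, each list's highest and lowest KO over WT and highest S over low ratio in WT could be named, and for likeness the closest gene per member and the 5 closest to their mean. The members and lists were chosen with earlier results of these data known. Of 120 listed repair genes 119 matched the matrices by symbol, *Hrob* being the one that did not. Results for a few of the genes this rule names are not reported here. The ratio script was tested on simulated counts. Python 3.11.15, numpy 2.4.6, scipy 1.17.1, pandas 2.3.3, scikit-learn 1.9.0, scanpy 1.11.5 and matplotlib 3.10.9 were used.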

Additional observations from a re-analysis of the deposited data

How the results depend on the processing

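No paired analysis was possible because each genotype has 1 library, so no replicate could be left out either. Alternatives with the same cycle sector, without the erythroid gate, with the CD201 limit per library, at the cycle shares of a gate and with free RNA bounded by *Fancd2* were chosen after seeing the data. Of 104 alternative values of the main results 67 stayed within their counting interval (counts of genes within 1.5 times). A further 31 moved beyond it, and 6 changed sign from a main value whose interval excluded 0. Sign changes from a main value whose interval reached 0 are not among the 6, such as CD150+CD48- over CD150-CD48+ in WT below. The median KO over WT log2 ratio of the members, 0.26, was 0.20 with median-of-ratios scaling, which shifts all genes by 0.07. At 2 times the UMI minimum (4036 WT and 2210 KO cells) it was 0.19. With free RNA subtracted at the haemoglobin share, which lies above the *Fancd2* limits, it was 0.15. At WT cycle shares it was 0.14, and within sectors 0.13. *Bard1*, *Blm*, *Brca1*, *Brca2*, *Fancd2* and *Palb2* were above 0 under 16 of 16 alternatives, *Fanci* under 15 (-1.04 with free RNA at the haemoglobin share), *Rad51ap1* under 14 (-0.015 at WT cycle shares, -0.057 within sectors) and *Fanca* under 2. In G2M cells alone the KO over WT median was 0.050 with thinned cells. In CD201-high CD150+CD48- cells it was 0.31 without the erythroid gate, and in all CD150+CD48- cells -0.088 at the WT cycle shares of the gate, against 0.27 as gated. S over low cells had a median of 3.78 in WT and 3.37 in KO when scores were cut at their outer portions, and 1.70 in KO with thinned cells. CD150+CD48+ over CD150+CD48- was -0.14 in WT and 0.020 in KO at equal cycle shares, and in KO 0.53 with log2 tag UMIs and 0.67 without the erythroid gate. CD150+CD48- over CD150-CD48+ in WT was 0.26 at equal cycle shares and 0.23 within sectors, and the weighted KO value was 0.16 without the erythroid gate. HSC over no gate was -0.40 in WT at a lineage limit of 1.0, -1.37 in WT and -1.26 in KO at 2.0, 0.55 and 0.32 at equal cycle shares, and 0.52 and 0.30 within sectors. Without thinning 73.0% and 83.1% of cells held a member UMI. The count of members at least 25% higher in KO was 0 with a filter of 20 CPM, 0 at 1.5-fold and 0 at WT cycle shares. That of repair genes was 2 with 20 CPM, 2 with median-of-ratios scaling, 0 at 1.5-fold and 0 at WT cycle shares, and of those at least 20% lower 2, 0 and 0 under the last 3 of these. Where cycle shares, gates or genes tested were changed, the alternative's own construction sets the value. For the other settings the cause was not tested. Depth limits *Fancd2*, *Fanci* and *Fanca* most, each with under 100 UMIs in most lineage gates.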
